A study of Mus musculus with 4 samples.

Results

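The 41 genes described here encode the enzymes that build purine and pyrimidine nucleotides, turn them into DNA precursors, feed them with one-carbon units carried on folate, or salvage and deaminate them. They were chosen by name as a pathway and found by pairing the Ensembl identifiers of the count tables with GENCODE M21 symbols. All 41 were found among 50686 identifiers, and all 41 were among the 15394 genes that passed the filter on low counts. The 4 libraries are bulk RNA-seq of mouse cells taken from spleen and lymph node and kept in culture, 1 library each of stimulated Yap KO, stimulated WT, unstimulated Yap KO and unstimulated WT cells. Both stimulated titles carry the number 24 without a unit. The sources used here state neither the stimulus nor the cell type, the way Yap was removed, or the number and age of the animals. No group had a replicate. A difference between the states is thus supported only by how alike the genotypes were, for that gene and across genes. Yap KO and WT are also 2 cell sources.

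Resting lymphocytes keep their nucleotide pools with little new synthesis, and a lymphocyte that is about to copy its genome must make both purine and pyrimidine rings from small molecules. The purine ring is built stepwise on phosphoribosyl pyrophosphate (PRPP) to give IMP, which is then turned into AMP or GMP. The pyrimidine ring is made first, by Cad and Dhodh, and is joined to PRPP by Umps. Serine gives its side-chain carbon to folate in mitochondria and cytosol, and that carbon enters the purine ring and thymidylate. Ribonucleotide reductase turns ribonucleotides into deoxynucleotides.

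Reads in genes ranged from 19935523 to 25419974 per library. Yap1 itself had 2 and 3 reads in stimulated Yap KO and WT cells, and 0 and 1 reads in unstimulated Yap KO and WT cells, too few reads to check the genotype labels. Cd8a and Cd8b1 had between 4858 and 39286 reads in each library, and Cd4 had at most 3 reads. The summed level of 9 T cell markers was 1950 and 2160 CPM (TMM-scaled reads relative to the library's size) in stimulated Yap KO and WT cells, and 4740 and 4360 CPM in unstimulated Yap KO and WT cells. Of 48 markers of B, plasma, NK, myeloid, dendritic, erythroid, platelet and stromal cells, 9 exceeded 10 CPM in any library and 5 had no reads at all. The 6 B cell markers summed to 23.8 and 12.1 CPM in stimulated Yap KO and WT cells, and 59.5 and 35.1 CPM in unstimulated Yap KO and WT cells. The sum of the 5 plasma cell markers followed Xbp1, and was 173 and 239 CPM in stimulated Yap KO and WT cells, and 89.5 and 93.4 CPM in unstimulated Yap KO and WT cells. The plasma cell marker Jchain went the other way, with 2 and 12 reads in stimulated Yap KO and WT cells, and 659 and 862 reads in unstimulated Yap KO and WT cells, and Prdm1 also fell (log2 coefficient -0.85). The 5 NK cell markers, mostly Eomes, summed to 71.9 and 54.6 CPM in stimulated Yap KO and WT cells, and 121 and 54.3 CPM in unstimulated Yap KO and WT cells. The 6 stromal and endothelial markers, mostly Pecam1, summed to 10.2 and 11.6 CPM in stimulated Yap KO and WT cells, and 121 and 156 CPM in unstimulated Yap KO and WT cells. The macrophage marker Lyz2 fell (-5.36), as did the NK cell marker Klrb1c, with 0 and 1 reads in stimulated Yap KO and WT cells and 75 and 50 reads in unstimulated Yap KO and WT cells. The markers with more reads in these lists did not fall alike. By edgeR's test of state, Csf1r (0.08, adjusted p = 0.741) and Eomes (-0.31, adjusted p = 0.158) were not called. The 5 dendritic cell markers summed to 32.5 and 15.2 CPM in stimulated Yap KO and WT cells, and 37.7 and 14.4 CPM in unstimulated Yap KO and WT cells, higher in Yap KO in both states. The sum of the 6 monocyte and macrophage markers was at most 27.2 CPM in any library, and those of the neutrophil, erythroid and platelet markers at most 3.8 CPM. The part of other cell types, and of the lower T cell marker sum of the stimulated libraries, in the results was not tested. In bulk RNA, fewer cells of a type and less RNA per cell cannot be told apart.

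Sequence near the gene starts is shown first, since most of these genes rose with stimulation. RefSeq promoter windows (GRCm38.p6, 250 bases before to 50 after the start) were found for 37 members, all but Pfas, Dhodh, Rrm2b and Ampd1. The most upstream window of each gene was used, and 8 members had more than 1. RefSeq starts can differ from the GENCODE gene starts. The E-box CACGTG, which reads the same on both strands and is bound by Myc and related factors, was in 7 of the 37 windows (18.9%), against 7.24% of 27025 RefSeq promoters. The 7 genes were Paics, Atic, Impdh2, Tyms, Dtymk, Dnph1 and Nme1, of which all but Atic rose with stimulation (below). Most members with a window rose, and the E-box was in 19.4% of the 31 windows of risers, near its share of all 37. The E2F letters TTTCCCGC, TTTCGCGC, TTTGCCGC or TTTGGCGC, searched on both strands, were in 2 windows (5.41%), those of Ppat and Prps2, against 2.33% of all promoters. The letters TGATGNAA, part of the element that ATF4 binds with C/EBP proteins, were in 1 window, that of Prps1 (2.70%, against 4.06%). CCAAT was in 37.8% of the members' windows and 38.0% of all. Matches are described by letters only and are not known binding sites. The windows below run 5′ to 3′ on the gene's strand, with the E-box or E2F letters in capitals. They show the gene with the widest rise (Dnph1), the thymidylate maker Tyms, the overlapping neighbours Paics and Ppat, and Atic, which has the E-box without a called change.
Dnph1, chr17:46496539-46496838, plus strand: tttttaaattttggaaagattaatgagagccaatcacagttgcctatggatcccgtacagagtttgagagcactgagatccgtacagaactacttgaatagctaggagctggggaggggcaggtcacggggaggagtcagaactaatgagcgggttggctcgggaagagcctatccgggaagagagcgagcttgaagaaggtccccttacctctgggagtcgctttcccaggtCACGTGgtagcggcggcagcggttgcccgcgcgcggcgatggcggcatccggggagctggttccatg
Tyms, chr5:30073576-30073875, minus strand: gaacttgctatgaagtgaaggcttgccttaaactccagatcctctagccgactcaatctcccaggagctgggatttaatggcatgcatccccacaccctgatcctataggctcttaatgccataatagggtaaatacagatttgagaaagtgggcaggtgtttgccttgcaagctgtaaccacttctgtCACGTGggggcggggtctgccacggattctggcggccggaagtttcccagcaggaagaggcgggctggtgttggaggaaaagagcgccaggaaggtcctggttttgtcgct
Paics, chr5:76951052-76951351, plus strand: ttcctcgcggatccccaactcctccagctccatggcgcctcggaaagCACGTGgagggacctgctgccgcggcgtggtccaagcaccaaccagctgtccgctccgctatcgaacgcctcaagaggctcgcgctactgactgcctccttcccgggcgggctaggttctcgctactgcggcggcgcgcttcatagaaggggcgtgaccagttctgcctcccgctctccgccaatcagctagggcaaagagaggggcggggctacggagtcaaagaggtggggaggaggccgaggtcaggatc
Ppat, chr5:76951529-76951828, minus strand: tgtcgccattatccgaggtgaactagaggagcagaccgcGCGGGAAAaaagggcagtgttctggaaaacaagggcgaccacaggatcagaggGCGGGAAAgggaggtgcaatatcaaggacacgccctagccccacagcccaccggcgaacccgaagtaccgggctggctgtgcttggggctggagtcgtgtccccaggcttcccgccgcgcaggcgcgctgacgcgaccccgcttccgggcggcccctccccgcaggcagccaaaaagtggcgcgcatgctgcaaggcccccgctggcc
Atic, chr1:71556906-71557205, plus strand: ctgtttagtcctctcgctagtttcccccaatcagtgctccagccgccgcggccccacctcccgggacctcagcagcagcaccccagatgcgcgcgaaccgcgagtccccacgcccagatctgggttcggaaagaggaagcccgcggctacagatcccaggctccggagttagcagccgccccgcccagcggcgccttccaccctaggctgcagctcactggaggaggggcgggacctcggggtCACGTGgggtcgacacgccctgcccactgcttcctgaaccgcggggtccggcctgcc
The E-box begins 17 bases before the RefSeq start of Dnph1, 61 before that of Tyms, 203 before that of Paics and 7 before that of Atic. The GENCODE gene start of Dnph1, at 46496711, lies further upstream, so its E-box is inside the GENCODE gene.

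Most nucleotide and one-carbon genes were higher in the stimulated libraries, and the DNA precursor genes had the widest rises. Together the 41 genes took 1.10% of reads in genes in stimulated Yap KO and 1.10% in stimulated WT cells, against 0.317% in unstimulated Yap KO and 0.304% in unstimulated WT cells. The exact 95% binomial intervals, which cover counting error only here and below, were 0.315 to 0.319% in unstimulated Yap KO and 0.302 to 0.307% in unstimulated WT cells, far from the stimulated shares. In edgeR's quasi-likelihood test of both genotypes together, 33 members rose, 5 fell and 3 were not called at an adjusted p of 0.05. Over all 15394 tested genes 33.3% were called higher and 34.1% lower. At least 2-fold rises were called for 31 members, against 22.2% of all genes. At least 4-fold rises were called for 13 members, against 9.86% of all genes. The members' median log2 ratio was 1.62 in Yap KO and 1.73 in WT cells, and the median of all tested genes was -0.05 in Yap KO and -0.02 in WT cells. Ratios had the same sign in both genotypes for all 41 members, and the share of all tested genes with like signs was not counted. The counting interval spanned 0 for 1 member in Yap KO (Adssl1) and 1 in WT cells (Atic). The p-values of the joint test rest on the likeness of the genotypes and not on replicate cultures.

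**Figure D1:**
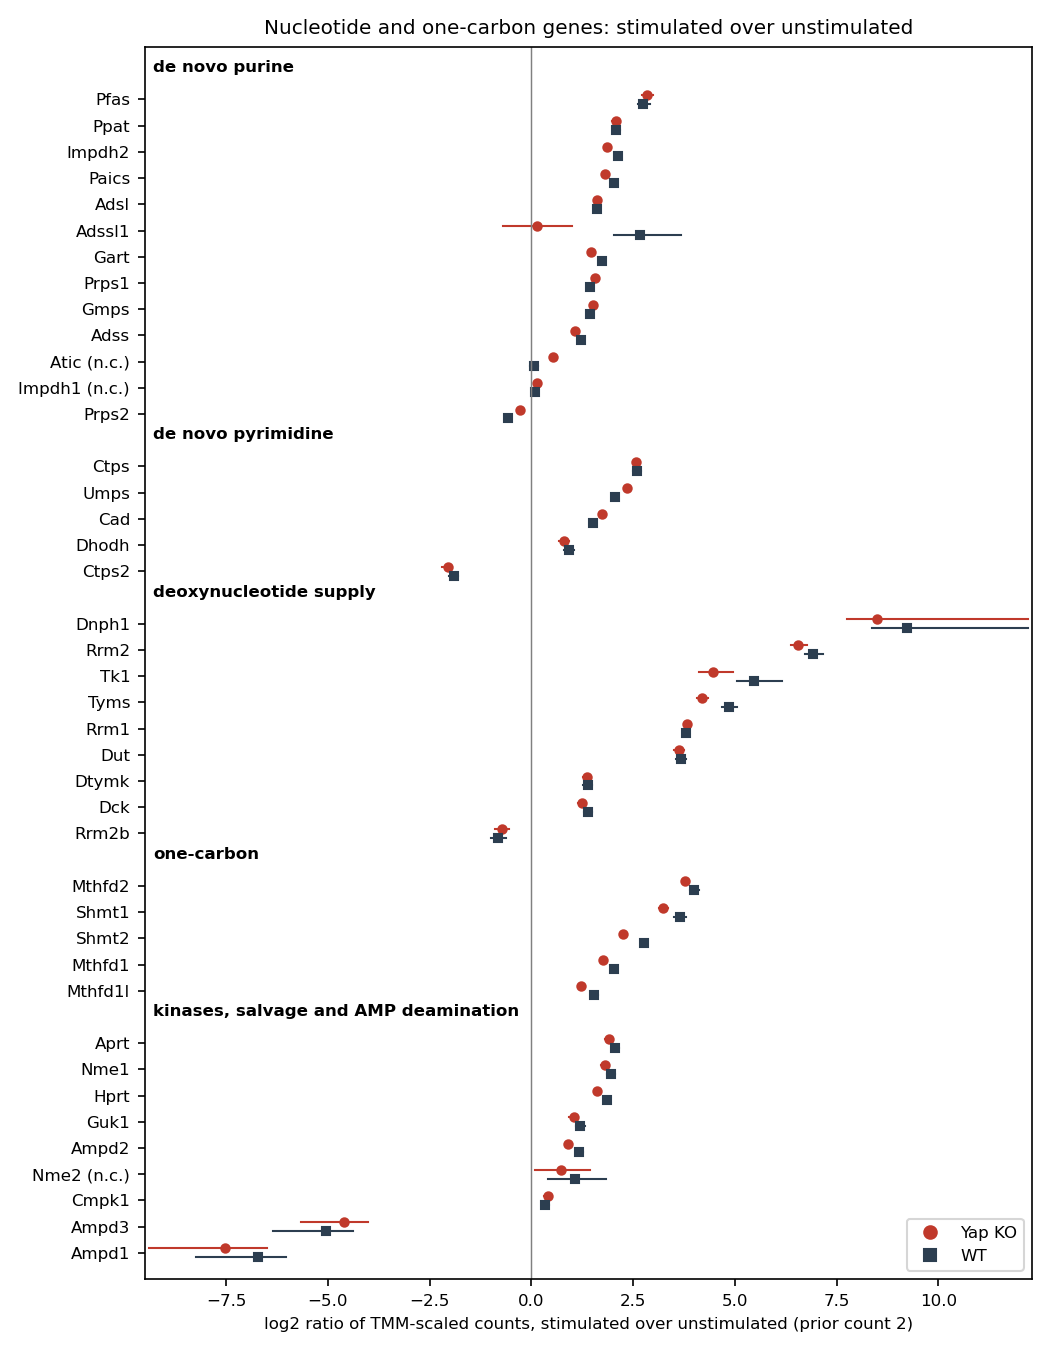
Log2 ratio of TMM-scaled counts, stimulated over unstimulated, for each of the 41 genes, grouped by role, with Yap KO (circles) above WT (squares). Lines are exact 95% counting intervals, which run past the edge of the plot for Dnph1 and Ampd1, n.c. marks the 3 genes that were not called, and the genotypes lie at least 1 apart for Adssl1 (0.14 in Yap KO and 2.66 in WT) and Tk1 (4.47 in Yap KO and 5.48 in WT).

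The widest rises were in the genes that make deoxynucleotides, of which 8 of 9 rose and 1 fell. The group's share of reads was 10.5-fold higher in Yap KO and 10.9-fold higher in WT cells after stimulation. Rrm2, the small subunit of ribonucleotide reductase that dividing cells use (chromosome 12, 24708241 to 24714146, GRCm38), had 922 and 917 CPM in stimulated Yap KO and WT cells, and 9.70 and 7.51 CPM in unstimulated Yap KO and WT cells. Its log2 coefficient was 6.74 ± 0.17 (SE of the fit, as in all such values; adjusted p = 2.37e-08). The large subunit gene Rrm1 rose less, with 959 and 998 CPM in stimulated Yap KO and WT cells and 68.0 and 71.3 CPM in unstimulated Yap KO and WT cells (3.81 ± 0.14). For both subunits each stimulated library stood above each unstimulated one, and the share of all genes with such a gap was not counted.

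Dnph1, which removes modified deoxynucleotides by cutting off their base, was nearly absent from the unstimulated libraries. It had 1167 and 1094 reads in stimulated Yap KO and WT cells, and 2 and 0 reads in unstimulated Yap KO and WT cells. In WT the rise was at least 409-fold, taking a floor of 3 reads for the library with none. In Yap KO the log2 ratio without a prior count was 9.62, with an exact 95% interval of 7.76 to 12.66 (adjusted p of the joint test 3.51e-08). Tk1, the thymidine kinase of S phase cells, had 47.1 and 62.6 CPM in stimulated Yap KO and WT cells, and 2.04 and 1.31 CPM in unstimulated Yap KO and WT cells (5.0 ± 0.26, adjusted p = 4.14e-07). Tyms, which methylates dUMP to give dTMP, had 361 and 320 CPM in stimulated Yap KO and WT cells, and 19.6 and 11 CPM in unstimulated Yap KO and WT cells (4.52 ± 0.18, adjusted p = 1.17e-07). Dut, which removes dUTP and so feeds Tyms, had 311 and 313 CPM in stimulated Yap KO and WT cells, and 25.3 and 24.4 CPM in unstimulated Yap KO and WT cells (3.65 ± 0.13).

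The other 2 risers of this group changed far less. Dtymk, which phosphorylates dTMP, rose by 1.38 ± 0.12 on the log2 scale and Dck, which salvages deoxycytidine, by 1.32 ± 0.13. The gene that fell was Rrm2b, the reductase subunit that p53 induces and that serves resting cells. It had 19.9 and 18.9 CPM in stimulated Yap KO and WT cells, and 32.9 and 33.3 CPM in unstimulated Yap KO and WT cells (-0.77 ± 0.16, adjusted p = 0.00211). Of its exon bases 734 of 9134 lie opposite Gm49085, and since the strand setting of the counting is not stated, reads of the opposite strand may not be told apart. All 12 S phase and proliferation markers also rose, with median log2 ratios of 3.72 in Yap KO and 3.82 in WT cells. The widest were Ccnb1 (7.67 ± 0.18) and Cdk1 (6.67 ± 0.19), which drive mitosis, and Mki67 rose by 5.70 ± 0.19. The part of more cells in S phase in these rises was not tested.

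All 5 one-carbon genes rose, with median log2 ratios of 2.24 in Yap KO and 2.76 in WT cells. Mthfd2, a mitochondrial folate dehydrogenase and cyclohydrolase (chromosome 6, 83305691 to 83325908), had 508 and 567 CPM in stimulated Yap KO and WT cells, and 36.8 and 35.4 CPM in unstimulated Yap KO and WT cells. Its coefficient was 3.89 ± 0.14 (adjusted p = 5.76e-08). Shmt1, the cytosolic serine hydroxymethyltransferase, had 262 and 250 CPM in stimulated Yap KO and WT cells, and 27.6 and 19.9 CPM in unstimulated Yap KO and WT cells (3.44 ± 0.15). Its mitochondrial counterpart Shmt2 had 830 and 937 CPM in stimulated Yap KO and WT cells, and 175 and 138 CPM in unstimulated Yap KO and WT cells (2.50 ± 0.16). The cytosolic trifunctional enzyme gene Mthfd1 rose by 1.90 ± 0.13, and Mthfd1l, the mitochondrial enzyme that releases formate, by 1.39 ± 0.13. Per kilobase of exon Shmt2 stood above Shmt1 in every library, but by less after stimulation. The level ratio of Shmt2 over Shmt1 was 3.96 and 4.68 in stimulated Yap KO and WT cells, and 7.91 and 8.62 in unstimulated Yap KO and WT cells. The level ratio of Mthfd1l over Mthfd1 was likewise lower after stimulation, at 0.360 and 0.510 in stimulated Yap KO and WT cells and 0.521 and 0.715 in unstimulated Yap KO and WT cells. In both pairs the cytosolic gene rose more than its mitochondrial counterpart, while the mitochondrial Mthfd2 rose most of all 5.

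Of the 13 genes of purine synthesis 10 rose, 1 fell and 2 were not called, and the medians were 1.51 in Yap KO and 1.62 in WT cells. The 10 include Adssl1, a low-count gene whose log2 ratio was 0.14 (-0.69 to 0.99) in Yap KO cells. Its call was lost under several alternatives (below). The 6 genes of the path from PRPP to IMP were not equal. Pfas, of the amidation step, rose most, with 139 and 120 CPM in stimulated Yap KO and WT cells, and 19.3 and 17.7 CPM in unstimulated Yap KO and WT cells (2.80 ± 0.14, adjusted p = 2.85e-07). Ppat, which commits PRPP to purines, rose by 2.08 ± 0.12, Paics by 1.92 ± 0.13, Adsl by 1.62 ± 0.12 and Gart, an enzyme with 3 activities, by 1.60 ± 0.13. Ppat and Paics lie head to head on chromosome 5, and 272 exon bases of each lie opposite the other, of 4421 and 3139 bases in all. Gart has 1014 of 5144 exon bases opposite Gm15964, the largest such share among members (19.7%). Gm15964 had 1935 and 1921 reads in stimulated Yap KO and WT cells, and 993 and 622 reads in unstimulated Yap KO and WT cells. Its log2 coefficient was 1.59, and that of Gm12500, which lies opposite Ampd2, was 1.24. Whether reads of the opposite strand entered these counts was not tested. The 12 members with any exon bases opposite another gene had 0.833 to 19.7% of their bases in such places.

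Atic, which carries out the last steps to IMP, was the exception on this path. It had 123 and 83.2 CPM in stimulated Yap KO and WT cells, and 84.6 and 79.7 CPM in unstimulated Yap KO and WT cells. The 3 lower values lay close together and stimulated Yap KO stood above them. Its coefficient was 0.30 ± 0.15 (adjusted p = 0.0960), with log2 ratios of 0.53 (95% interval 0.45 to 0.62) in Yap KO and 0.06 (-0.03 to 0.16) in WT cells. Beyond IMP, the GMP branch rose through Impdh2 (2.00 ± 0.13) and Gmps (1.48 ± 0.12), and the AMP branch through Adss (1.14 ± 0.12).

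Pyrimidine genes rose in 4 of 5 cases. Ctps, a CTP synthase, rose most of them (2.59 ± 0.13, adjusted p = 2.74e-07), followed by Umps (2.21 ± 0.13) and Cad (1.63 ± 0.13), the enzyme that starts the ring. Umps had 366 and 351 CPM in stimulated Yap KO and WT cells, and 71.6 and 84.3 CPM in unstimulated Yap KO and WT cells. Dhodh, the mitochondrial step between Cad and Umps, rose by 0.86 ± 0.14, less than its neighbours, with 67.0 and 66.6 CPM in stimulated Yap KO and WT cells and 38.4 and 35.0 CPM in unstimulated Yap KO and WT cells. The gene that fell was Ctps2 (-1.99 ± 0.13, adjusted p = 1.56e-06).

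Of the 9 salvage, kinase and AMP deaminase genes 6 rose, 2 fell and 1 was not called. Aprt and Hprt, which return adenine and hypoxanthine or guanine to the nucleotide pool, rose by 1.98 ± 0.13 and 1.74 ± 0.13. Nme1 rose by 1.88 ± 0.13, Guk1, the GMP kinase, by 1.12 ± 0.13, and Cmpk1, the UMP and CMP kinase, by 0.37 ± 0.12 (adjusted p = 0.0227). Cmpk1 was no longer called without the low count filter (adjusted p = 0.0555) or with scaling to total counts (adjusted p = 0.0633). Nme2 had 44 and 52 reads in stimulated Yap KO and WT cells, and 35 and 27 reads in unstimulated Yap KO and WT cells (0.93 ± 0.37, adjusted p = 0.0508). Its count is uncertain. Of its 1171 exon bases 573 are shared on the same strand with the readthrough gene Gm20390, which had 0 reads in all 4 libraries, and reads in shared bases can be counted as ambiguous. Nme1 shares 418 of 3342 bases in the same way.

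For some enzymes made from more than one gene, partner genes went opposite ways or changed order in level per kilobase of exon. Others, such as Shmt2 and Shmt1, rose together and kept their order. Ctps stood at 80.1 and 76.1 CPM per kb in stimulated Yap KO and WT cells, and 13.3 and 12.6 CPM per kb in unstimulated Yap KO and WT cells. Ctps2, on the X chromosome from 162901238 to 163032508, stood at 7.0 and 8.13 CPM per kb in stimulated Yap KO and WT cells, and 29.2 and 30.6 CPM per kb in unstimulated Yap KO and WT cells. The level ratio of Ctps over Ctps2 was thus 11.4 and 9.34 in stimulated Yap KO and WT cells, and 0.457 and 0.413 in unstimulated Yap KO and WT cells. The ratio changed by 4.64 (95% counting interval 4.49 to 4.79) in Yap KO and 4.50 (4.35 to 4.65) in WT cells on the log2 scale.

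The same exchange of order was seen for inosine monophosphate dehydrogenase. Impdh2, the form tied to proliferation, stood at 125 and 124 CPM per kb in stimulated Yap KO and WT cells, and 34.1 and 28.3 CPM per kb in unstimulated Yap KO and WT cells. Impdh1 stood between 50.6 and 56.2 CPM per kb in all 4 libraries and was not called (0.12 ± 0.12, adjusted p = 0.410). Of the 31-base words of Impdh2 transcripts 43.7% also occur in other genes, mostly the pseudogene Impdh2-ps, which had 144 and 157 reads in stimulated Yap KO and WT cells and 38 and 35 reads in unstimulated Yap KO and WT cells, so some Impdh2 reads may be missing. For ribonucleotide reductase, the level ratio of Rrm2 over Rrm2b was 152 and 159 in stimulated Yap KO and WT cells, and 0.976 and 0.751 in unstimulated Yap KO and WT cells. Prps1 and Prps2, both X-linked PRPP synthetases, kept their order but moved apart. Prps1 rose by 1.5 ± 0.12. Prps2 had 103 CPM in both stimulated Yap KO and stimulated WT cells, and 125 and 153 CPM in unstimulated Yap KO and WT cells (-0.43 ± 0.13, adjusted p = 0.0155). Their level ratio was 5.13 and 5.11 in stimulated Yap KO and WT cells and 1.44 and 1.26 in unstimulated Yap KO and WT cells. Of Prps1's 31-base words 18.5% occur in Prps1l3, which had 1653 to 2121 reads per library.

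**Figure D2:**
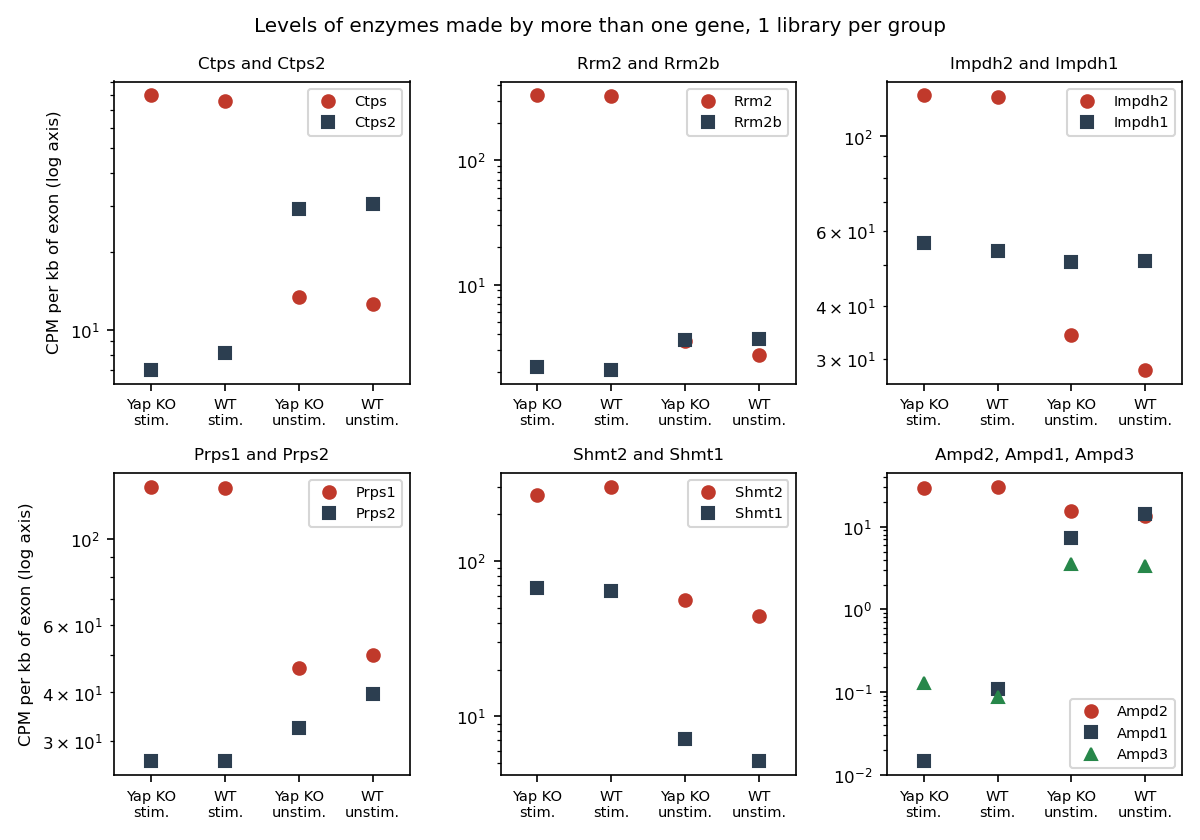
Level (CPM per kilobase of exon, log axis) of genes that encode forms of the same enzyme, with 1 point per library, stimulated libraries left of unstimulated and Yap KO left of WT within each state. Ctps and Ctps2, Impdh2 and Impdh1, and Rrm2 and Rrm2b exchange their order between the states, with Rrm2 and Rrm2b nearly level in unstimulated Yap KO cells. Ampd2 and Ampd1 do so in WT cells only. Ampd1 and Ampd3 are near the bottom in the stimulated libraries.

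Of the 3 genes of AMP deaminase, which turns AMP back into IMP, 2 fell and 1 rose. Ampd1, known as the muscle form (chromosome 3, 103074014 to 103099720), had 1 and 8 reads in stimulated Yap KO and WT cells, and 681 and 1165 reads in unstimulated Yap KO and WT cells. Its log2 ratio without a prior count was -8.98 (-14.29 to -6.50) in Yap KO and -7.02 (-8.24 to -6.04) in WT cells, and the joint adjusted p was 1.88e-07. Ampd3, known as the red cell form, had 14 and 10 reads in stimulated Yap KO and WT cells, and 513 and 436 reads in unstimulated Yap KO and WT cells (-4.99 ± 0.31, adjusted p = 1.10e-06). Ampd2 instead rose by 1.04 ± 0.13, with 29.1 and 30.4 CPM per kb in stimulated Yap KO and WT cells and 15.6 and 13.4 CPM per kb in unstimulated Yap KO and WT cells. Ampd1 stood at 7.39 CPM per kb in unstimulated Yap KO cells, below Ampd2, and at 14.3 CPM per kb in unstimulated WT cells, just above it. Some markers of other cell types fell between the same libraries, among them Jchain, Lyz2 and Pecam1, while others, such as Csf1r and Eomes, were not called. The part of other cell types in the falls of Ampd1 and Ampd3 was not tested. Pecam1 had 193 and 227 reads in stimulated Yap KO and WT cells, and 3065 and 3567 reads in unstimulated Yap KO and WT cells. The muscle form of adenylosuccinate synthase, Adssl1, was low beside Adss, at 0.334 to 2.34 CPM per kb against 28.0 to 64.8 CPM per kb. Its lowest level was that of unstimulated WT cells and its highest that of stimulated WT cells.

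Levels per kilobase also changed order across the whole pathway. In stimulated cells Rrm2 stood first among members, at 333 and 331 CPM per kb in Yap KO and WT, followed by Hprt at 294 and 314 and Shmt2 at 267 and 301. In unstimulated cells Hprt stood first, at 95.8 and 86.7 CPM per kb in Yap KO and WT, while Rrm2 stood at 3.5 and 2.71. Impdh1 ranked 22 among the 41 in both stimulated libraries, and 4 in unstimulated Yap KO and 2 in unstimulated WT cells, at nearly the same level throughout.

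The related genes were tested in the same fit, in which 33.3% of all 15394 genes were called higher and 34.1% lower. Of 23 other folate and serine genes 15 rose and 1 fell. The widest rises were those of Aldh1l2, a mitochondrial formyl-folate dehydrogenase with 237 and 358 reads in stimulated Yap KO and WT cells and 2 and 0 reads in unstimulated Yap KO and WT cells, and of Psat1, of serine synthesis (4.51 ± 0.16). The one that fell was Aldh1l1, the cytosolic counterpart of Aldh1l2 (-1.79 ± 0.40, adjusted p = 0.00313).

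Of 27 other salvage and breakdown genes 22 were tested, and Pnp was the one with no match. Of the 22, 11 rose (50%, against 33.3% of all genes) and 7 fell, near the 34.1% of all genes. Dctpp1, which cleans the dCTP pool, rose by 4.07 ± 0.16 and Dctd, which makes dUMP from dCMP, by 2.38 ± 0.18. The widest falls were those of the mitochondrial thymidine kinase Tk2 (-2.62 ± 0.17) and of Xdh, which oxidises purines to uric acid (-2.22 ± 0.15). Tk1 and Tk2 thus moved in opposite directions: Tk2 had 13.8 and 16.3 CPM in stimulated Yap KO and WT cells, and 103 and 83.0 CPM in unstimulated Yap KO and WT cells.

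Among 10 tested nucleotide kinases and PRPP partners 4 rose (40%, near the 33.3% of all genes) and 2 fell. The widest rises were those of Ak4, a mitochondrial kinase, and Ak6 (2.92 ± 0.15). Ak4 had 880 and 1249 reads in stimulated Yap KO and WT cells, and 1 and 9 reads in unstimulated Yap KO and WT cells. Those that fell were Cmpk2 (-2.92 ± 0.18) and Ak3 (-0.46 ± 0.13). Of 6 tested nucleoside transporters 4 rose, led by the equilibrative carriers Slc29a1 (2.25 ± 0.14) and Slc29a2 (2.20 ± 0.26), and 2 fell, the concentrative carrier Slc28a2 (-3.18 ± 0.15) and Slc25a36 (-0.75 ± 0.13). Of 13 regulators 9 rose, led by E2f1 (3.63 ± 0.17) and E2f3 (3.29 ± 0.22), and only Mxd4, which opposes Myc, fell (-3.84 ± 0.23). Myc rose by 1.66 ± 0.12 and Atf4 by 1.54 ± 0.13.

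**Figure D3:**
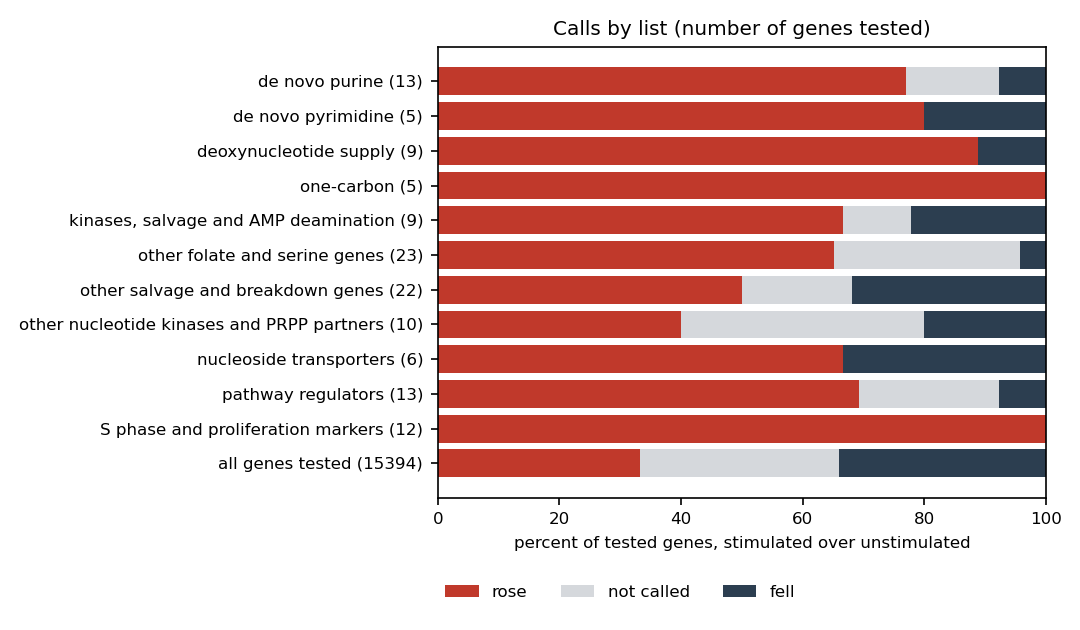
Percent of the tested genes of each list that rose, were not called or fell in the joint test of stimulated over unstimulated libraries, with the number tested in brackets. All one-carbon genes and all S phase and proliferation markers rose, and the bar of all 15394 genes shows 33.3% higher and 34.1% lower.

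Most of these genes differed by less than 1.5-fold between Yap KO and WT cells in both states, and none passed the test by genotype. By edgeR's joint test of both states, 0 members were called higher and 0 lower at an adjusted p of 0.05, against 0.838% of all genes higher and 0.559% lower, and DESeq2 called none either. At an unadjusted p under 0.05 there were 4 members, Ampd1, Cad, Tyms and Aprt, and 11.6% of all genes. Since only 2 cell sources are compared, animals within a genotype do not enter these p-values. By size, 0 members differed at least 2-fold the same way in both states, against 0.955% of all genes higher and 0.883% lower in Yap KO. Ratios lay within 1.5-fold in both states for 35 members, and the share of all tested genes within that limit was not counted. Ratios above 0 in both states were found for 18 members, against 30.3% of all genes, and below 0 in both for 7 members, against 4007 of 15394 genes. The members' median log2 ratio, Yap KO over WT, was 0.01 stimulated and 0.10 unstimulated, and that of all genes 0 stimulated and 0.03 unstimulated.

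The other 6 members were Cad, Ampd1, Tyms, Tk1, Dnph1 and Adssl1. Cad had 683 CPM in Yap KO and 451 CPM in WT stimulated cells, and 204 CPM in Yap KO and 158 CPM in WT unstimulated cells. Its log2 ratio, Yap KO over WT, was 0.60 (0.56 to 0.64) stimulated and 0.37 (0.31 to 0.43) unstimulated, with a joint adjusted p of 0.126. Ampd1 had a ratio of -1.76 (-8.39 to -0.02) stimulated, which rests on 1 and 8 reads, and -0.95 (-1.09 to -0.82) unstimulated, with a joint adjusted p of 0.104. Tyms had 0.17 (0.12 to 0.22) stimulated and 0.83 (0.61 to 1.05) unstimulated, with a joint adjusted p of 0.30. For Dnph1 the ratio of 0.89 unstimulated rests on 2 and 0 reads, and no fold is given. None of the 6 passed the joint test.

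The response to stimulation differed by at least 2-fold between the genotypes for 2 members, Adssl1 and Tk1. The log2 response, stimulated over unstimulated, was lower in Yap KO than in WT for 29 of 41 members, against 54.7% of all tested genes. This count is signed, so it includes genes that fell more in Yap KO. The median difference was -0.15 for members and -0.05 for all genes. By the same signed difference, 0 members were at least 2-fold higher in Yap KO, against 2.51% of all genes. Lower by at least 2-fold were 2 members, against 3.92%. Adssl1 had 24 and 100 reads in stimulated Yap KO and WT cells, and 29 and 16 reads in unstimulated Yap KO and WT cells, a difference of responses of -2.52 (-3.59 to -1.44). Its call with state (1.61 ± 0.56, adjusted p = 0.0294) was lost with DESeq2 (adjusted p = 0.171), without the low count filter (0.0878), with state as the only factor (0.0717) and with the older quasi-likelihood method (0.0647). Tk1 differed by -1.01 (-1.67 to -0.36), from 53 reads in unstimulated Yap KO and 30 in unstimulated WT cells, and with DESeq2 size factors by -0.979, short of the 2-fold limit. These differences have no replicate and were not tested.

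**Figure D4:**
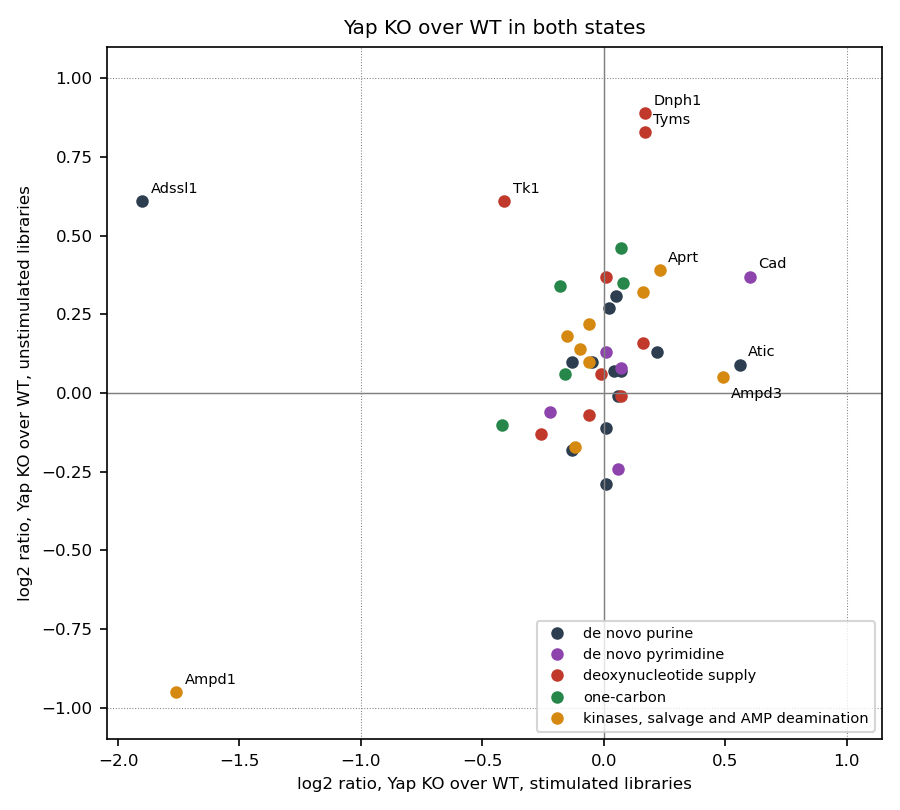
Log2 ratio of Yap KO over WT for each of the 41 genes in the stimulated (horizontal) and unstimulated (vertical) libraries, coloured by role, with dotted lines at 2-fold. Most points lie near the centre, and Ampd1, Adssl1, Tk1, Cad, Tyms and Dnph1 lie apart from it.

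Among the related genes, 1 of the 10 tested kinases and PRPP partners and 0 in the other lists were called by genotype, against 0.838% of all genes higher and 0.559% lower. Cmpk2, a mitochondrial nucleotide kinase that interferon induces, had 4.56 and 13.3 CPM in stimulated Yap KO and WT cells, and 42.2 and 86.3 CPM in unstimulated Yap KO and WT cells. Its coefficient was -1.23 ± 0.18, Yap KO over WT (adjusted p = 0.0118). Samhd1, which breaks down deoxynucleotides and is also known as an interferon-inducible gene, was named after its values were seen. It had 125 and 251 CPM in stimulated Yap KO and WT cells, and 317 and 288 CPM in unstimulated Yap KO and WT cells, and was not called by genotype (-0.43 ± 0.23, adjusted p = 0.530). The difference of its log2 responses, Yap KO minus WT, was -1.15 (95% interval -1.23 to -1.06) and has no replicate.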

How the data were processed

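The authors deposited 1 table of raw read counts per library, whole numbers per Ensembl gene identifier with no normalization, ending in 5 summary entries. The submitters' processing notes name mm9. No aligner, annotation release or strand setting is stated in the sources used here, and coordinates and promoters are those of GRCm38. Neither library sizes nor tests include the summary entries. Unassigned reads (no feature) were 48.3 to 52.5% of all entries, ambiguous reads 0.635 to 0.755% and reads aligned in more than 1 place 3.48 to 4.31%. Of 50686 identifiers 50462 had a symbol.

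Low counts were filtered by state with filterByExpr (minimum count 10) and libraries scaled with TMM (factors 0.968 to 1.04). The main test was the quasi-likelihood F test of edgeR 4.0.16 in R 4.3.3, with genotype and state as additive terms and Benjamini-Hochberg adjustment over 15394 genes. The fit has 1 residual degree of freedom and 7.98 prior degrees of freedom, and SE is the coefficient over the root of F. Per-genotype log2 ratios used a prior count of 2. Ratio intervals are 95% conditional binomial (exact), and those of isozyme ratios and of response differences are normal on the log scale. Intervals treat each read as a separate molecule, which was not tested. Counts were also simulated over 15394 genes, with 100 genes changed at each fold, the same dispersion (0.019) for every gene and no genotype by state interaction. There the state test recovered 66.0% of 2-fold and 96.0% of 4-fold changes and called 4 unchanged genes. The genotype test recovered 78.0% and 97.0% and called 7. Far more genes were called with state in the real data, so these rates need not hold there. Overlaps used bedtools 2.31.1. Values were also recomputed with DESeq2 1.42.0, other scalings, no filter, 1 factor only, and without genes opposite another gene.

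Named are all members and, per related list, up to 2 genes with the widest rise and fall, and, chosen after their values were seen, Myc, Atf4, Mki67 and Samhd1. The members and lists were chosen with earlier results of these data known.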

Additional observations from a re-analysis of the deposited data

How the results depend on the processing

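No paired analysis was possible because every title carries the number 1, so the groups share fewer than 2 replicate numbers; the genotype term of the additive fit already compares the states within each genotype's pair of libraries, and the fit with state as the only factor, which has no such term, called 32 members higher and 5 lower. Of 275 member values with state under 7 alternatives, 268 kept their direction and side of the threshold, 6 lost the call (Adssl1 and Cmpk1) and 1 gained it (Nme2 with DESeq2 size factors, adjusted p = 0.0473); none reversed. The members that rose numbered 31 to 34 under the alternatives that kept all genes. Without genes opposite another gene, fewer genes are tested: 23 members rose, 3 members fell, 8 related genes fell, all genes with state numbered 3233 higher and 3401 lower, and all genes with genotype 72 higher and 47 lower, against 33, 5 members, 13 related genes, 5124, 5246, 129 and 86. Genotype calls over all genes were 23 higher and 18 lower without the filter, 0 and 0 with genotype as the only factor, and 56 lower with total counts; the cause was not tested. With a 1.5-fold limit, 1 member (Ampd1) was lower in Yap KO in both states. With DESeq2 size factors, 1 member (Adssl1) had a smaller response in Yap KO by the 2-fold limit. The older quasi-likelihood method, chosen after seeing the data, gave 32 members higher and 5 lower. Total-count scaling shifted all state values by a median of -0.08. Depth limits Adssl1, Nme2, and Dnph1, Ampd1 and Ampd3 in their low state.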
